A study of Homo sapiens with 12 samples.

Results

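The genes described here are 10 direct transcriptional targets of YAP and TEAD, namely *CCN1*, *CCN2*, *F3*, *AXL*, *NT5E*, *FJX1*, *ANKRD1*, *AMOTL2*, *AJUBA* and *PTPN14*. The list was given by gene name, with no threshold on these values, but with earlier results of these data known. All 10 were found among the 20345 Ensembl rows of the expression table. RNA was sequenced from HGC-27, a human gastric cancer cell line, in 12 libraries of 4 groups with 3 libraries each. WT cells and cells labelled TEAD4KO were either untreated or given GLUP, a cyclic peptide engineered to link TEAD4 molecules into condensates. The study's methods for RNA sequencing name stocking buffer as the negative control, without saying whether the untreated libraries here received it. The design text asks whether the response to GLUP depends on TEAD4. The libraries called WT here are titled NC and carry no genotype label. Dose, treatment time and the number of knockout clones are not given in the labels.

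TEAD factors sit on DNA and need a partner to act on transcription. When the Hippo kinases are inactive, YAP and TAZ enter the nucleus, bind TEAD and switch on genes for matricellular ligands, surface receptors and cytoskeletal proteins, whereas VGLL4 occupies the same factors and represses them. Several targets then act back on the pathway: *AMOTL2* and *PTPN14* restrain YAP, while *AJUBA* holds back the Hippo kinases LATS. A target list of this kind thus holds both outputs and feedback, and the feedback does not act on YAP in a single direction. *CCN1* and *CCN2* are the usual readouts of YAP activity in epithelial tumours, gastric cancer included.

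Values are FPKM, mapped fragments scaled by transcript length and library total, and levels of different genes are compared on this scale only, since it is per length. Differences between groups were fitted on log2(FPKM + 1) with limma over the 11225 rows that averaged 1 FPKM or more. A call is an adjusted p under 0.05, and differences on this scale are understated for low genes. *NT5E*, at a mean of 0.34 FPKM, did not pass the filter, so 9 of the 10 targets were tested. The study's methods speak of biological replicates for RNA sequencing, but the labels do not say which libraries came from separate cultures, so p-values measure the spread between these samples, which may be technical. In bulk RNA, fewer cells that express a gene and less RNA per cell cannot be told apart.

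*TEAD4* transcript went against the TEAD4KO label. It measured 25.8, 24.4 and 25 FPKM in untreated WT, 23.7, 22.9 and 23.8 in WT with GLUP, 30.1, 27.7 and 27.2 in untreated libraries labelled TEAD4KO, and 27.8, 29.4 and 26 in those with GLUP, so no labelled library lay below the highest WT library. An FPKM over the whole gene does not see a small frameshifting deletion, and TEAD4 protein was not analysed here. On the first principal component, with 39.7% of the variance, WT libraries lay between -16.2 and -3.71 and libraries labelled TEAD4KO at 9.91 or above, except untreated replicate 1 (-0.962) and GLUP replicate 16 (-5.26). Differences under the label are also given without both of these libraries. They were the labelled libraries nearest WT on this axis, so their removal favours larger differences and gives no independent support. The genotype difference followed transcript length across 11077 genes (Spearman -0.52 untreated, -0.478 with GLUP). The GLUP difference followed length more weakly and in the other direction (0.237 in WT, 0.197 in TEAD4KO-labelled cells, 0.273 over both genotypes). With GC content the correlations were 0.3 and 0.198 for the label, and -0.122, -0.226 and -0.225 for GLUP, in the same orders. By limma *TEAD4* lay higher under the label by 0.17 on the log2 scale untreated (adjusted p = 0.135) and by 0.23 with GLUP (0.0479). The call with GLUP was lost in 8 of 12 fits with a library left out. After correction for GC content and length the differences were 0.0081 (0.955) and 0.11 (0.271). Of the epithelial markers, *EPCAM*, *KRT18* and *KRT19* averaged 0.0937, 0.168 and 0.0109 FPKM over the 12 libraries, *CDH1* averaged 2.75 and *KRT8* 5.78, against 1420 for the mesenchymal *VIM*. The other mesenchymal markers, *CDH2* and *FN1*, averaged only 0.0846 and 6.38. Of the markers of other cells, the leukocyte gene *PTPRC* averaged 0.18, and the fibroblast genes *COL1A1* and *DCN* 239 and 63.1. The endothelial gene *PECAM1* was also planned as a marker, but no value is given for it here.

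The markers also moved between groups, although none of those tested was called in the comparisons within a genotype or a treatment. Summed over the 5 epithelial markers, libraries ranged from 8.49 to 9.56 FPKM in untreated WT, 6.49 to 7.49 in WT with GLUP, 9.62 to 12.4 in untreated libraries labelled TEAD4KO and 7.19 to 9.24 in those with GLUP, so the sum was lower with GLUP in both genotypes and higher under the label in untreated cells, without overlap. *KRT19* was at 0 in 9 of the 12 libraries. Among single markers, *KRT8* lay 1.48-fold higher under the label in untreated cells (log2 0.48, adjusted p = 0.0674), and *CDH1* lay lower with GLUP in WT, at a ratio of 0.667 (-0.42, adjusted p = 0.636). The sum of 3 mesenchymal markers, nearly all *VIM*, ranged from 1307 to 1377 in untreated WT, 1249 to 1307 in WT with GLUP, 1418 to 1614 in untreated labelled libraries and 1357 to 1705 in those with GLUP. *VIM* lay higher under the label by 0.19 (adjusted p = 0.227) without GLUP and 0.27 (0.0818) with it, while *FN1* lay lower under the label in GLUP-treated cells, at a ratio of 0.679 (-0.49, adjusted p = 0.124). The sum of *PTPRC*, *COL1A1* and *DCN* ranged from 307 to 341 over all WT libraries and from 224 to 362 over those labelled TEAD4KO. The part of these shifts in the results on the targets was not tested.

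The targets covered a wide range of levels in untreated WT cells. *AJUBA* (28.3 ± 0.404 FPKM, SD, n = 3) and *CCN1* (26.6 ± 1.7) were highest and overlapped, followed by *PTPN14* (16.4 ± 0.845) and *AMOTL2* (16.4 ± 0.709), which also overlapped. *AXL*, *CCN2*, *ANKRD1*, *FJX1*, *F3* and *NT5E* followed in that order with no overlap between neighbours. Among all tested rows, *CCN1* stood at the 78th percentile of mean level, *CCN2* at 40.6 and *F3* at 7.33. The order of levels was the same in WT with GLUP apart from the first pair. In both groups labelled TEAD4KO, *AMOTL2* lay above *PTPN14* with no overlap, and *CCN2*, *AXL* and *ANKRD1*, in that order of means, overlapped with their neighbours.

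**Figure D1:**
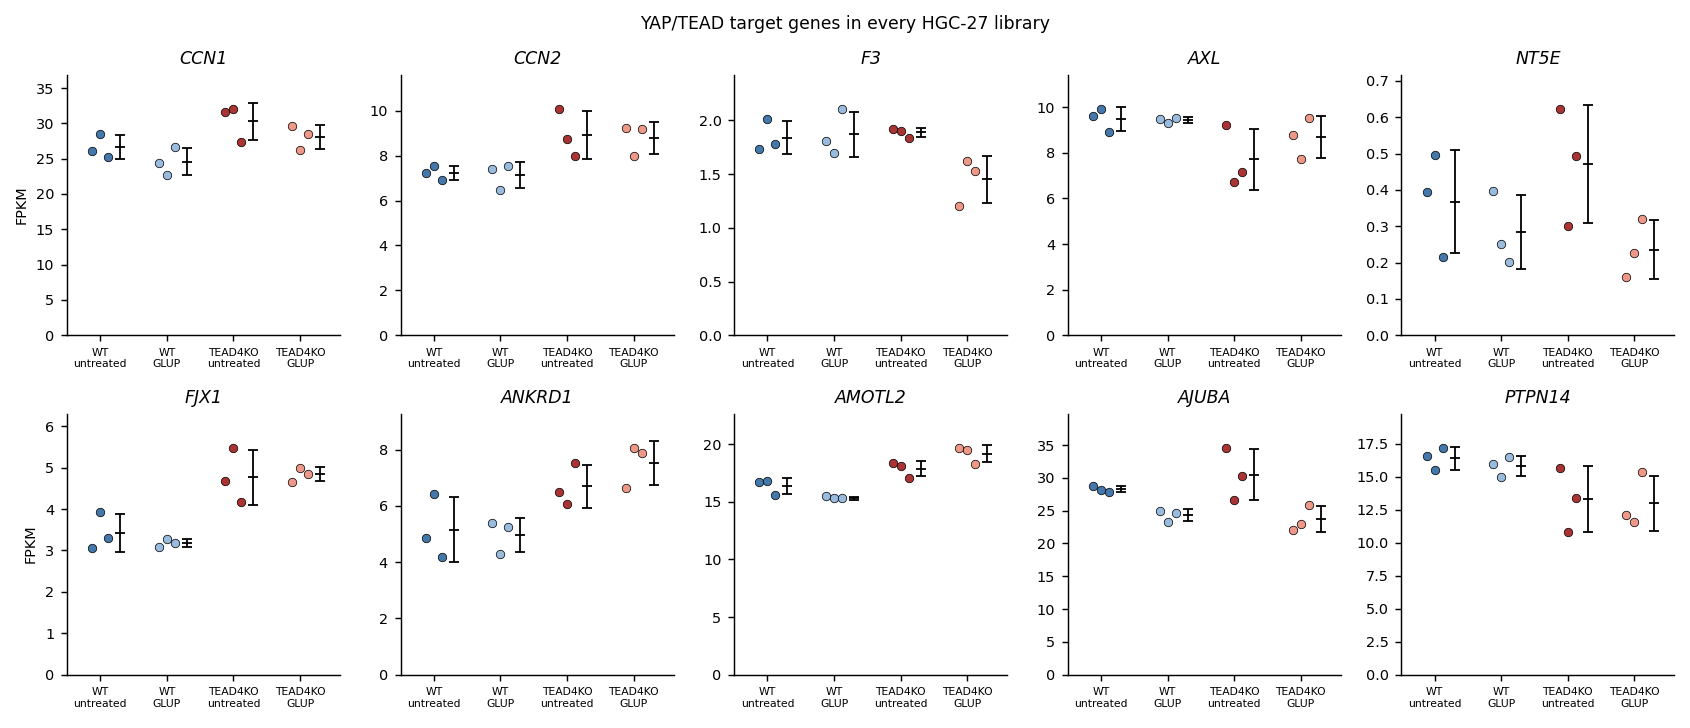
FPKM of the 10 YAP/TEAD target genes in each of the 12 HGC-27 libraries, 1 panel per gene with its own axis from 0; points are libraries in 4 groups, and bars give the group mean ± SD (n = 3). All libraries labelled TEAD4KO lie above all WT libraries of the same treatment for *CCN2*, *FJX1* and *AMOTL2*, and for *ANKRD1* with GLUP, and *AJUBA* lies lower in both GLUP groups.

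The promoters of these genes hold the letters that TEAD proteins bind in unequal number. TEAD recognises the M-CAT core, searched here as GGAATG or its reverse complement CATTCC, and AP-1, which often sits beside TEAD, recognises TGANTCA, the same on both strands. Both were searched in RefSeq windows of 300 bases (250 before and 50 after the transcript start, GRCh38.p14). The 10 targets had 12 windows from 9 genes, and *CCN1* was not matched. Of the 9 genes, 6 held the M-CAT core, in 6 of the 12 windows, against 14% of all 35116 windows, and 2 held the AP-1 letters, against 7.71%. The longer core ACATTCC or GGAATGT was in 2 of the genes and in 3.46% of all windows. These matches are letters, not measured binding.

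*CCN2* and *ANKRD1* held more than 1 M-CAT core, and their 250 bases up to the start are shown with M-CAT cores and AP-1 letters in capitals, 5′ to 3′ along the gene (chr6:131951373-131951622 and chr10:90921088-90921337, both minus strand).
CCN2: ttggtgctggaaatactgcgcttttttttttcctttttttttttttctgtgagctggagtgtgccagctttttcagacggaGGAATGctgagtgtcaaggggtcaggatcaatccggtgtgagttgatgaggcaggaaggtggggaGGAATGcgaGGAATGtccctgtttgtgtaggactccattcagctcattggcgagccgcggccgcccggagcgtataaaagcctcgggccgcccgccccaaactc
ANKRD1: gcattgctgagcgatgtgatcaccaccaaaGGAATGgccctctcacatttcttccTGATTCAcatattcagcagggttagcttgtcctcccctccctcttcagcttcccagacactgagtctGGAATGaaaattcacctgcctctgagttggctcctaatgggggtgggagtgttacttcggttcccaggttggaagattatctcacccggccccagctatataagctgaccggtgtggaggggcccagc
The 3 cores of *CCN2* begin at -169, -104 and -95 from the start, and 0.128% of all windows held 3 or more. The 2 cores of *ANKRD1* begin at -220 and -128, with the AP-1 letters between them at -195, and 1.37% of all windows held 2 or more cores.

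Stretches of 60 bases around the single core of the 3 feedback genes and of *AXL*, and 74 bases around both AP-1 matches of *F3*, show how the other matches sit (chr14:22976869-22976928 minus, chr3:134374484-134374543 minus, chr1:214551770-214551829 minus, chr19:41226516-41226575 plus and chr1:94541936-94542009 minus, in the order listed).
AJUBA: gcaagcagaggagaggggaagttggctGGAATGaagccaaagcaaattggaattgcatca
AMOTL2: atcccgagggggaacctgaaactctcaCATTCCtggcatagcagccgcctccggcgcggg
PTPN14: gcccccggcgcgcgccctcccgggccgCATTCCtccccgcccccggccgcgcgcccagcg
AXL: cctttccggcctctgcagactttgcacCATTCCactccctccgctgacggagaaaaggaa
F3: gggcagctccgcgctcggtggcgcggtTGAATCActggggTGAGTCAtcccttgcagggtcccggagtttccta
The cores begin at -59 in *AJUBA*, -69 in *AMOTL2*, -200 in *PTPN14* and -212 in *AXL*, where the other window of *AJUBA*, *AMOTL2* and *AXL* held neither motif. *NT5E* and *FJX1* held neither in their windows.

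**Figure D2:**
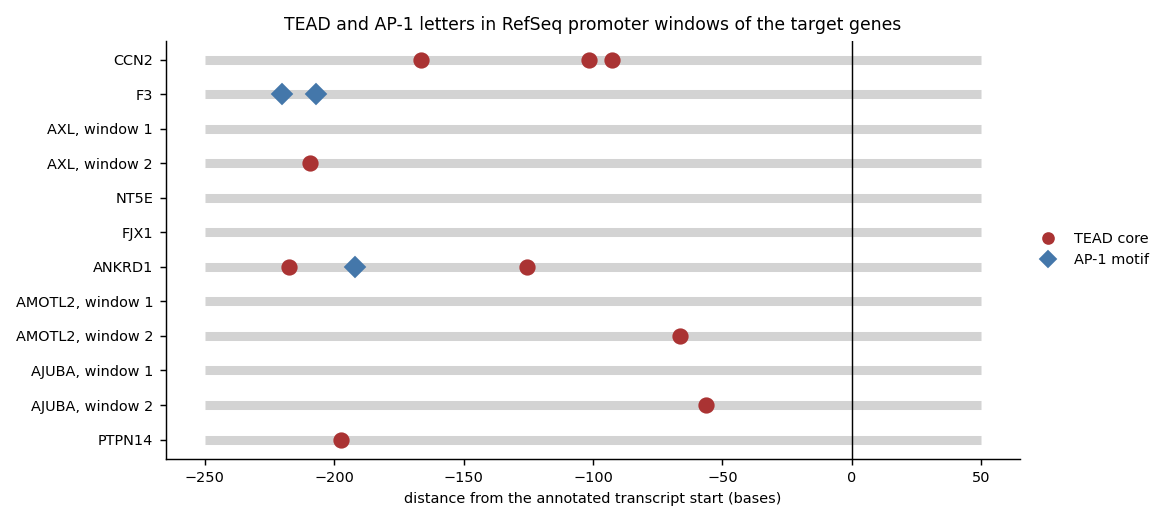
Position of M-CAT cores (circles, GGAATG or CATTCC) and AP-1 letters (diamonds, TGANTCA) in the RefSeq promoter windows of 9 target genes; the horizontal axis is the distance in bases from the annotated transcript start. *CCN2* holds 3 cores and *ANKRD1* holds 2, while *F3* holds only AP-1 letters and *NT5E* and *FJX1* hold neither.

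The first comparison asked what GLUP did to the targets in WT cells. None of the 9 tested targets was called by limma (0 of 9, against 0.00891% of all rows), and 1 of them, *AJUBA*, had an unadjusted p under 0.05. Their median log2 difference was -0.051, beside 0.0088 over all tested rows, with 1 higher and 8 lower, where 5178 of all 11225 rows lay lower. Of these 8, *CCN2*, *AXL*, *FJX1* and *ANKRD1* changed direction in at least 1 fit with a library left out. Groups did not overlap for 2 targets, *AJUBA* and *AMOTL2*, both lower with GLUP, where 7.16% of all rows lay lower without overlap and 10.2% higher. In cells labelled TEAD4KO none of the 9 was called either (0.0445% of all rows), 2 had an unadjusted p under 0.05 (*AJUBA* and *F3*), the median was -0.017 for the targets and for all rows, and *AJUBA* and *F3* lay lower without overlap (background 3.98% lower, 2.85% higher).

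The matricellular ligands came first in the pathway's output. *CCN1* (ENSG00000142871, chr1:86046444-86050272, plus strand, GRCh37 as for all gene positions that follow) encodes a secreted integrin ligand. It measured 26.1, 28.5 and 25.2 FPKM in untreated WT and 24.4, 22.7 and 26.6 with GLUP, and the groups overlapped. In libraries labelled TEAD4KO it measured 31.6, 32.1 and 27.3 untreated and 29.6, 26.3 and 28.5 with GLUP, again with overlap. The log2 difference was -0.11 in WT (95% confidence interval -0.29 to 0.066) and -0.10 in TEAD4KO-labelled cells (-0.28 to 0.071), neither called (adjusted p = 0.999 and 0.932).

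*CCN2* (ENSG00000118523, chr6:132269316-132272512, minus strand) encodes the related connective tissue growth factor. It measured 7.25, 7.54 and 6.92 FPKM in untreated WT and 7.42, 6.47 and 7.55 with GLUP, so the treated libraries lay on both sides of the untreated ones. The interval of the difference, -0.22 to 0.18 around -0.018, bounds a fall with GLUP at 0.22 on the log2 scale. In TEAD4KO-labelled libraries it was 10.1, 8.75 and 7.97 untreated and 9.23, 7.98 and 9.17 with GLUP, with the same bounds around -0.017.

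No receptor or surface enzyme was called with GLUP. *F3* (ENSG00000117525, chr1:94994729-95007315, minus strand) encodes tissue factor, the initiator of coagulation. It measured 1.73, 2.01 and 1.78 FPKM in untreated WT and 1.81, 1.7 and 2.11 with GLUP. In TEAD4KO-labelled libraries it measured 1.92, 1.9 and 1.84 untreated and 1.2, 1.62 and 1.53 with GLUP, so all 3 treated libraries lay below all 3 untreated ones there and not in WT. That difference, -0.24 (-0.46 to -0.024), was not called (adjusted p = 0.751), and the difference between the genotypes in the response was not called either (-0.26, adjusted p = 1).

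*AXL* (ENSG00000167601, chr19:41725128-41767671, plus strand) encodes a receptor tyrosine kinase for GAS6. It measured 9.61, 9.94 and 8.9 FPKM in untreated WT and 9.47, 9.3 and 9.53 with GLUP, with overlap and a difference of -0.0061 (-0.23 to 0.22). In TEAD4KO-labelled libraries the values were 9.24, 6.72 and 7.17 untreated and 8.79, 7.71 and 9.54 with GLUP, a difference of 0.16 (-0.066 to 0.38, adjusted p = 0.902). *NT5E* (ENSG00000135318, chr6:86159302-86205509, plus strand) encodes CD73, which makes adenosine at the cell surface. It was low everywhere, at 0.394, 0.496 and 0.214 FPKM in untreated WT and 0.398, 0.252 and 0.202 with GLUP, and at 0.624, 0.301 and 0.492 against 0.159, 0.227 and 0.32 in TEAD4KO-labelled libraries. Groups overlapped in each comparison.

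*FJX1* and *ANKRD1* did not separate with GLUP. *FJX1* (ENSG00000179431, chr11:35640008-35642413, plus strand), the human relative of the fly growth regulator four-jointed, measured 3.05, 3.93 and 3.3 FPKM in untreated WT and 3.08, 3.28 and 3.18 with GLUP. *ANKRD1* (ENSG00000148677, chr10:92671853-92680844, minus strand) encodes a nuclear and sarcomeric ankyrin repeat protein. It measured 4.84, 6.42 and 4.18 in untreated WT and 5.37, 4.28 and 5.26 with GLUP. The differences were -0.077 (-0.30 to 0.14) and -0.03 (-0.31 to 0.25), and the adjusted p was 0.999 for both. In TEAD4KO-labelled cells they were 0.022 (-0.20 to 0.24) and 0.15 (-0.14 to 0.43).

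Among the feedback genes, *AJUBA* had the largest difference with GLUP of the 9 tested targets in both genotypes. *AJUBA* (ENSG00000129474, chr14:23440386-23451760, minus strand) encodes a LIM protein that holds back the LATS kinases. It measured 28.7, 28.1 and 27.9 FPKM in untreated WT and 25, 23.3 and 24.6 with GLUP, and 34.6, 26.7 and 30.3 against 22.1, 23 and 25.9 in TEAD4KO-labelled libraries. In both genotypes every treated library lay below every untreated one. The log2 difference was -0.21 (SE 0.086, adjusted p = 0.999) in WT and -0.35 (SE 0.086, adjusted p = 0.26) in TEAD4KO-labelled cells.

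Over both genotypes together the difference in *AJUBA* was -0.28 (-0.41 to -0.15), which did not pass the threshold (adjusted p = 0.0953). None of the 9 targets passed in this comparison of all GLUP with all untreated libraries, 1 had an unadjusted p under 0.05, and 0.258% of all rows were called. The result for *AJUBA* stood near the threshold: it was called in 5 of 20 alternative fits, with an adjusted p from 0.00802 to 0.285. Those fits were the correction for GC content and length (0.00802), library weights (0.0208), median-ratio scaling (0.033), leaving out both TEAD4KO libraries that lay apart (0.0284) and leaving out TEAD4KO untreated replicate 2 alone (0.0381).

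*AMOTL2* and *PTPN14* completed the feedback group. *AMOTL2* (ENSG00000114019, chr3:134074189-134094321, minus strand) encodes an angiomotin that retains YAP outside the nucleus. It measured 16.7, 16.8 and 15.6 FPKM in untreated WT and 15.5, 15.3 and 15.3 with GLUP, and 18.4, 18.1 and 17.1 against 19.7, 19.5 and 18.3 in TEAD4KO-labelled libraries. The differences pointed in opposite directions, -0.088 in WT (-0.22 to 0.044) and 0.10 in TEAD4KO-labelled cells (-0.036 to 0.23), with neither called. *PTPN14* (ENSG00000152104, chr1:214522043-214725792, minus strand) encodes a phosphatase that binds YAP in the cytoplasm. It measured 16.6, 15.5 and 17.2 in untreated WT and 16, 15 and 16.5 with GLUP, a difference of -0.051 (-0.31 to 0.21).

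**Figure D3:**
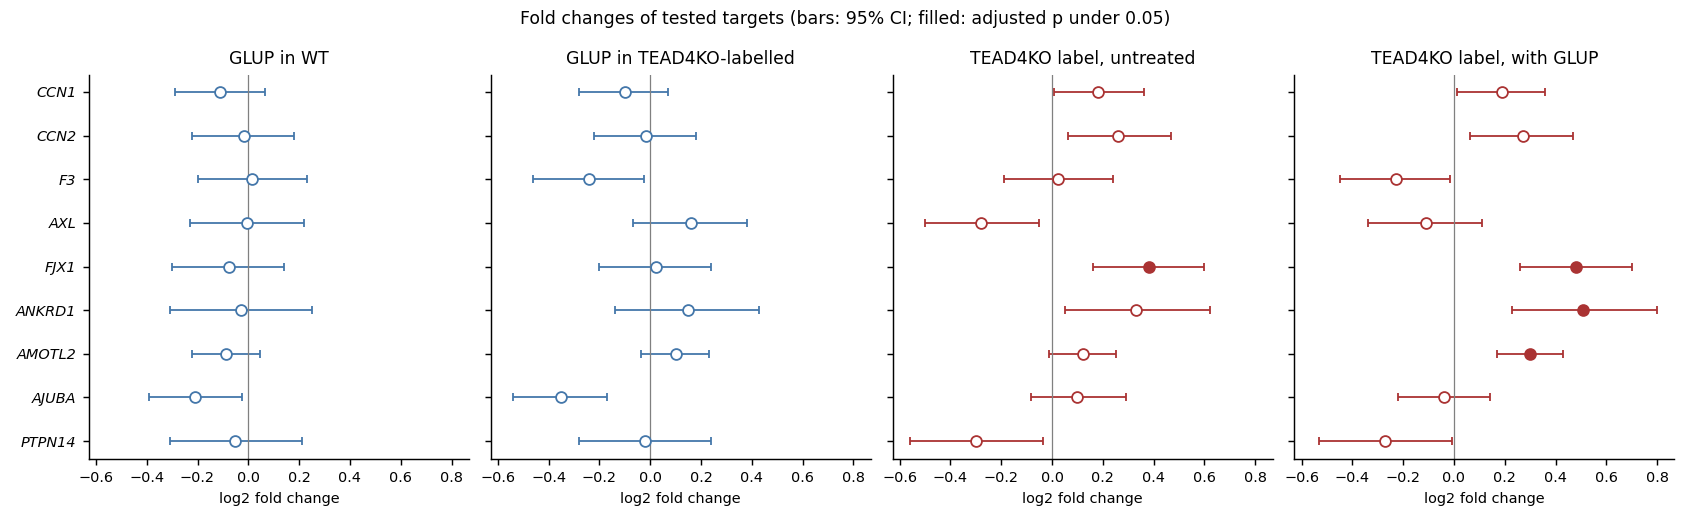
Log2 fold change of the 9 tested targets in 4 comparisons (horizontal axis, log2(FPKM + 1) scale); points are estimates from 1 limma fit, bars the 95% confidence interval, and filled points have an adjusted p under 0.05. No point is filled for GLUP, *FJX1* is filled for the TEAD4KO label in untreated cells, and *FJX1*, *ANKRD1* and *AMOTL2* are filled for the label with GLUP.

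The second comparison set the libraries labelled TEAD4KO against WT, with the same libraries as above in another arrangement, so it is not independent of the GLUP comparisons. Without GLUP, 1 of the 9 targets (*FJX1*) was called and it rose, where 4.92% of all rows were called higher, 0.499% lower and 5.42% in either direction. With GLUP, 3 of the 9 (*FJX1*, *ANKRD1* and *AMOTL2*) were called and all were higher, where 4.91% of all rows were called higher, 0.935% lower and 5.84% in all. No target was called lower in either. The median log2 difference of the targets was 0.12 without GLUP and 0.19 with it, beside 0.023 and -0.0039 over all tested rows. Groups did not overlap for *CCN2*, *FJX1* and *AMOTL2* without GLUP, all higher (background 18.3% higher, 7.47% lower). With GLUP *ANKRD1* joined these 3, and *F3* lay lower without overlap (background 16.7% higher, 12.9% lower).

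*FJX1* was higher under the label in both conditions. In TEAD4KO-labelled libraries it measured 4.68, 5.48 and 4.16 FPKM untreated and 4.66, 5 and 4.85 with GLUP, above every WT library in each condition. The ratio of group means was 1.39 without GLUP (log2 0.38, SE 0.10, adjusted p = 0.0442) and 1.52 with it (0.48, SE 0.10, adjusted p = 0.0145). Leaving out 1 library ended the untreated call in 8 of 12 cases, namely WT untreated replicates 1 (adjusted p = 0.171) and 3 (0.176), WT GLUP replicates 14 (0.0675), 15 (0.0671) and 16 (0.0634), TEAD4KO untreated replicate 2 (0.148) and TEAD4KO GLUP replicates 14 (0.0533) and 15 (0.0524). It ended the call with GLUP in 4 of 12, namely WT GLUP replicates 14 (0.0641) and 16 (0.0659) and TEAD4KO GLUP replicates 14 (0.0503) and 15 (0.0592). The transcript of *FJX1* has the highest GC content of the 10 genes, 64%, and the correction for GC content and length gave 0.22 without GLUP (adjusted p = 0.308) and 0.37 with it (0.0685). Over all alternatives the call was made in 7 of 22 without GLUP and in 17 of 22 with it.

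*ANKRD1* differed by a similar amount. In TEAD4KO-labelled libraries it measured 6.48, 6.06 and 7.52 FPKM untreated, where replicate 2 lay below the highest WT library, and 6.63, 8.06 and 7.87 with GLUP, all above the 3 WT libraries. The ratio of means was 1.3 without GLUP (log2 0.33, adjusted p = 0.156, not called) and 1.51 with it (0.51, SE 0.13, adjusted p = 0.0383). The call with GLUP was lost in 6 of 12 cases, without WT untreated replicate 1 (0.0575), WT GLUP replicates 14 (0.0773), 15 (0.134) and 16 (0.0931) and TEAD4KO GLUP replicates 14 (0.0628) and 15 (0.133), and also under the correction for GC content and length (0.44, adjusted p = 0.078) and with no filter on low values (0.0972). It was made in 14 of 23 alternatives.

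*AMOTL2* had the smallest of the called differences and was called under the most alternatives. With GLUP the ratio of means was 1.25 (log2 0.30, SE 0.061, adjusted p = 0.0119), and without it 1.09 (0.12, adjusted p = 0.284). The call with GLUP was made in 20 of 23 alternatives, the correction for GC content and length among them (0.37, adjusted p = 0.0271), and was lost without WT GLUP replicate 16 (0.0623), TEAD4KO GLUP replicate 14 (0.0625) or 15 (0.0532). Without both TEAD4KO libraries that lay apart, *AMOTL2*, *ANKRD1* and *FJX1* stayed called with GLUP, at adjusted p = 0.00269, 0.0329 and 0.00978. That fit called 3121 of all 11225 rows with GLUP, against 656 with all 12 libraries. In untreated cells the same fit gave 0.39 for *FJX1* (adjusted p = 0.0323), 0.35 for *ANKRD1* (0.118) and 0.10 for *AMOTL2* (0.272). With replicate numbers as a block, called rows over all genes with GLUP went from 656 to 1064, and the 3 targets were called as before, at adjusted p = 0.0182 for *AMOTL2*, 0.0487 for *ANKRD1* and 0.0104 for *FJX1*.

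The ligands lay higher under the label without passing the test. *CCN2* differed by 0.26 without GLUP (0.063 to 0.47, adjusted p = 0.116) and by 0.27 with it (0.064 to 0.47, adjusted p = 0.11), a ratio of means of 1.23 in both, and all 3 labelled libraries lay above all 3 WT libraries in each condition. *CCN1* differed by 0.18 (adjusted p = 0.213) and 0.19 (adjusted p = 0.183), with overlap in both. With library weights the difference in *CCN2* with GLUP was called (adjusted p = 0.0279). Without both libraries that lay apart, *CCN2* was at 0.18 (adjusted p = 0.167) and 0.24 (0.0684), and *CCN1* at 0.15 (0.251) and 0.18 (0.16).

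*PTPN14* and *AXL* pointed the other way. *PTPN14* measured 15.7, 10.8 and 13.4 FPKM in untreated libraries labelled TEAD4KO and 12.1, 11.6 and 15.4 with GLUP, and the library nearest WT in each group was the one that lay apart on the first principal component. The same held for *AXL*, with 9.24 in untreated replicate 1 and 9.54 in GLUP replicate 16. Neither gene was called in the fit of all 12 libraries, with a log2 difference of -0.30 (adjusted p = 0.172) and -0.28 (0.139) without GLUP and -0.27 (0.199) and -0.11 (0.535) with it.

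Without both libraries that lay apart, *PTPN14* was called in both conditions, at -0.42 (adjusted p = 0.00786) and -0.39 (0.0075), and *AXL* in untreated cells, at -0.40 (0.00589). That fit called 2231 of all 11225 rows untreated and 3121 with GLUP, against 608 and 656 with all 12 libraries. Leaving out TEAD4KO untreated replicate 1 alone gave the call for *PTPN14* (0.0405) and *AXL* (0.0198) in untreated cells, and leaving out TEAD4KO GLUP replicate 16 alone gave it for *PTPN14* with GLUP (0.0378). *PTPN14* has the longest transcript of the 10 genes, 13360 bases, and after the correction for GC content and length its differences were -0.15 (adjusted p = 0.207) and -0.078 (0.458). *F3* differed by 0.024 without GLUP and by -0.23 with it (adjusted p = 0.92 and 0.182), and *AJUBA* by 0.10 and -0.04 (0.534 and 0.808). Without both libraries *F3* was at 0.016 (0.935) and -0.26 (0.105), *AJUBA* at 0.01 (0.931) and -0.10 (0.248), and *AXL* with GLUP at -0.18 (0.115).

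**Figure D4:**
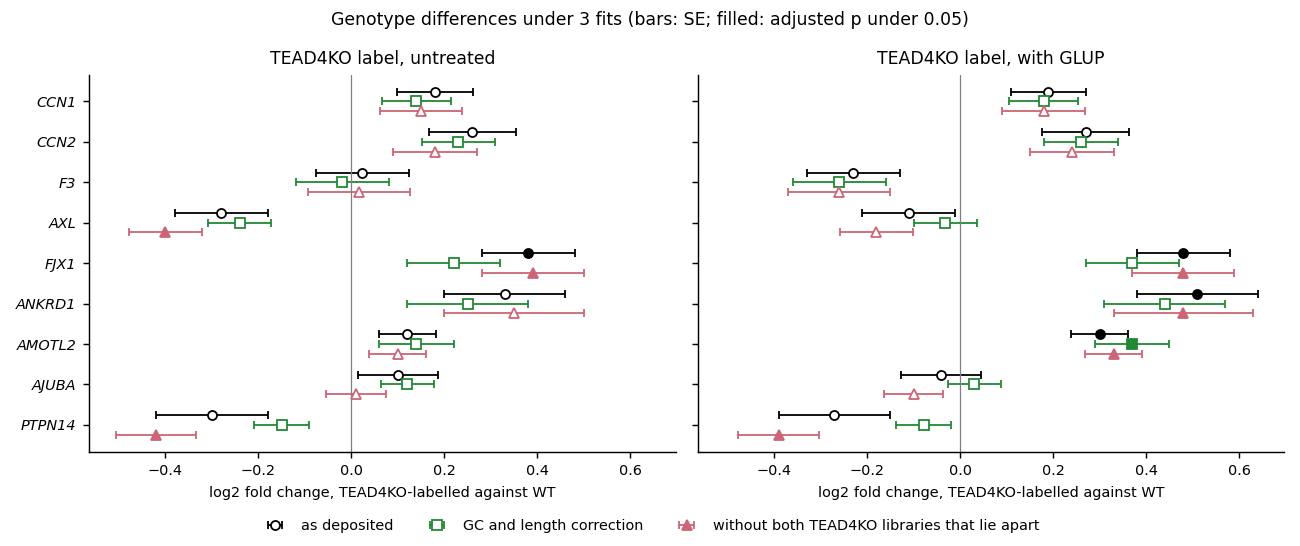
Log2 fold change of the 9 tested targets between libraries labelled TEAD4KO and WT, untreated (left) and with GLUP (right), under 3 fits; bars are the standard error and filled symbols have an adjusted p under 0.05. *PTPN14* is filled only without both TEAD4KO libraries that lay apart, and *AMOTL2* with GLUP is filled in all 3 fits.

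The interaction, the GLUP effect in TEAD4KO-labelled cells minus that in WT, was called for none of the 9 targets (0.00891% of all rows were called), and none had an unadjusted p under 0.05. Its median over the targets was 0.029, beside -0.019 over all tested rows. *AMOTL2* came nearest, at 0.18 (-0.0027 to 0.37, adjusted p = 1). For *CCN2* the interaction was 0.00075 with an interval from -0.28 to 0.29, and for *CCN1* 0.005 (-0.24 to 0.25), so differences in response within those bounds are not excluded.

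A list of 13 further YAP, TAZ and TEAD targets gave a wider view, of which 12 were tested and *NUAK2* lay below the filter. With GLUP, none of the 12 was called in either genotype alone. The highest difference was that of *TGFB2*, which encodes a transforming growth factor ligand. It measured 11, 12.2 and 11.6 FPKM in untreated WT and 15.6, 15.1 and 16.5 with GLUP, and 12.5, 11.2 and 13.1 against 16.2, 15.9 and 18.2 in TEAD4KO-labelled libraries. Every treated library lay above every untreated one, and *TGFB2* rose over both genotypes (log2 0.41, SE 0.055, adjusted p = 0.00521), and no other of the 12 was called there. The call held with each library left out in turn (adjusted p from 0.00975 to 0.0275).

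The lowest differences among the 12 were of other genes. In WT with GLUP the lowest was *RBMS3*, an RNA-binding protein gene, at 3.75, 3.7 and 3.9 FPKM untreated and 3.42, 2.88 and 2.96 with GLUP (-0.23, adjusted p = 0.999). Over both genotypes the lowest was *FOXF2* at -0.14 (0.698). The interaction ran from -0.12 for *DOCK5*, a Rac exchange factor gene, to 0.43 for *RBMS3*, both at an adjusted p of 1. Under the TEAD4KO label, *ASAP1*, which encodes a GTPase-activating protein for ARF, was lowest in both conditions, at -0.33 (adjusted p = 0.109) and -0.34 (0.0962), neither called with all 12 libraries. It was called without TEAD4KO untreated replicate 1 in both conditions (0.0217 and 0.0399) and, with GLUP, without TEAD4KO GLUP replicate 16 (0.0181) and with the replicate block (0.0458). Those were the labelled libraries nearest WT, so leaving them out favours larger differences. These left-out calls were 1 of 12 fits untreated and 2 of 12 with GLUP. The adjusted p in the other left-out fits reached 0.346 untreated and 0.313 with GLUP.

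*IGFBP3*, which encodes a secreted binding protein of insulin-like growth factors, was the highest of the 12 under the label in both conditions. It measured 108, 116 and 109 FPKM in untreated WT and 129, 145 and 164 in untreated libraries labelled TEAD4KO, and 113, 126 and 152 against 187, 183 and 163 with GLUP, with no overlap. It rose by 0.39 without GLUP (adjusted p = 0.0498) and 0.45 with it (0.0248). The first call was lost without any 1 of WT untreated replicates 1, 2 and 3, WT GLUP replicate 15, TEAD4KO untreated replicates 2 and 3 and TEAD4KO GLUP replicates 14 and 15 (adjusted p from 0.0591 to 0.178). The second was lost without WT GLUP replicate 14 or 15 or TEAD4KO GLUP replicate 14 or 15 (0.0785 to 0.115).

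*FOXF2*, a forkhead factor gene, was the other of the 12 called under the label with GLUP. It measured 5.21, 5.36 and 4.22 FPKM in WT with GLUP and 6.33, 6.62 and 6.68 in libraries labelled TEAD4KO, with no overlap. Its difference was 0.35 (adjusted p = 0.0349), and it was lost without any 1 of WT untreated replicates 1, 2 and 3, WT GLUP replicates 14 and 16 and TEAD4KO GLUP replicates 14 and 15 (0.055 to 0.17). In counts, the 12 had 1 called higher without GLUP and 2 with GLUP under the label, and none lower, where 4.92% and 4.91% of all rows were called higher. Their medians were -0.028 and 0.019, beside 0.023 and -0.0039 over all tested rows. Without both libraries that lay apart, *IGFBP3* was at 0.47 (adjusted p = 0.00798) and 0.51 (0.00361), *ASAP1* at -0.45 (0.00295) and -0.44 (0.00207), and *FOXF2* with GLUP at 0.34 (0.0229). That fit favours larger differences and called 2231 of all 11225 rows untreated and 3121 with GLUP, against 608 and 656 with all 12 libraries. Values of *IGFBP3*, *ASAP1* and *FOXF2* after correction for GC content and length are not given here.

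The TEAD factors and their partners were expressed in every group, but not all at one level. *YAP1* ranged from 30.9 to 48.5 FPKM over the 12 libraries, and of the TEAD genes *TEAD1* was the highest in untreated WT (31.8 ± 1.59), followed by *TEAD4* (25.1 ± 0.709), *TEAD2* (13.3 ± 0.693) and *TEAD3* (8.22 ± 0.607), with no overlap between neighbours. *WWTR1*, which encodes TAZ, measured 19.5, 18.9 and 18.5 in untreated WT and 21.8, 20 and 22.3 with GLUP. In TEAD4KO-labelled libraries it measured 19.3, 16.7 and 20.6 untreated and 24.7, 21.1 and 23.8 with GLUP. The groups did not overlap in either genotype, but no difference was called by limma. It was 0.16 in WT (adjusted p = 0.999), 0.29 in TEAD4KO-labelled cells (0.467) and 0.23 over both genotypes (0.223).

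Under the label *TEAD2* fell in both conditions, by 0.50 on the log2 scale untreated (adjusted p = 0.0083) and by 0.45 with GLUP (0.0125). The first call was lost without WT untreated replicate 3 (0.0573), and the second without WT GLUP replicates 14 (0.0509) or 16 (0.0659) or TEAD4KO GLUP replicate 15 (0.0619). *TEAD1* fell in untreated cells by 0.33 (adjusted p = 0.0482), a call that held in 2 of 12 cases with a library left out, those without TEAD4KO untreated replicate 1 or TEAD4KO GLUP replicate 16 (the other adjusted p ran from 0.0508 to 0.191). With GLUP the difference in *TEAD1* was -0.19, not called with all 12 libraries (adjusted p = 0.222). After correction for GC content and length, *TEAD1* was at -0.22 untreated (adjusted p = 0.0442) and -0.047 with GLUP (0.584), and *TEAD2* at -0.59 (0.0094) and -0.50 (0.00845). Without both libraries that lay apart, *TEAD2* was at -0.57 (adjusted p = 0.00237) and -0.47 (0.00395), and *TEAD1* at -0.41 (0.00423) and -0.26 (0.0247). That fit called 2231 of all 11225 rows untreated and 3121 with GLUP, against 608 and 656 with all 12 libraries. The mean of *TEAD4* lay above that of *TEAD1* in both labelled groups, 28.3 against 25.1 FPKM untreated and 27.7 against 26.8 with GLUP, with overlap.

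*VGLL4*, the repressive partner, measured 11, 9.62 and 9.86 FPKM in untreated WT and 11.9, 12.4 and 14.3 with GLUP, and 11.3, 11 and 10.7 against 13.3, 14.1 and 15.1 in TEAD4KO-labelled libraries, with no overlap in either genotype. It rose with GLUP over both genotypes (0.32, adjusted p = 0.0399), and with a library left out the call held in 1 of 12 cases, without TEAD4KO untreated replicate 1 (0.0499).

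Likeness over the 12 libraries was taken for the 2 ligands. The genes most like *CCN1* by Pearson correlation of log2(FPKM + 1) were *DRG2* (r = 0.922, Spearman 0.881), *BANF1* (0.908 and 0.846) and *RAB3IL1* (0.897 and 0.895). Those most like *CCN2* were *ARHGAP45* (0.965 and 0.972), *ZNF503* (0.951 and 0.944) and *ZFTRAF1* (0.949 and 0.888). The 12 points share the 4 groups and the shifts between libraries, so these values are a description.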

How the data were processed

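The authors isolated total RNA from HGC-27 cells, had it sequenced, processed the reads on a cloud service and deposited FPKM, with a column for each library and a row for each Ensembl gene. The submitters' processing notes name HISAT2, Cufflinks, RSEM and hg19, with no role or version. Columns matched sample titles, 3 per group, and 0 columns were left unused. Groups came from the titles and treatment labels, and WT, for libraries titled NC, from the design text and titles.

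The 10 targets and all lists were chosen with earlier results of these data known. Symbols were matched for 96.5% of rows, and positions and GC content came from GENCODE on GRCh37. Sequencing depth is unknown: values under 0.1 FPKM kept no steps of whole reads (1.27% of genes shared the most common ratio), so precision rests on replicates alone. FPKM is relative to each library's total, so length and GC shifts between libraries stay in it.

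With limma 3.58.1 (R 4.3.3), log2(FPKM + 1) of the 11225 rows averaging 1 FPKM or more was fitted in one model of the 4 groups (lmFit, eBayes with trend, no covariates). Tests were two-sided, with Benjamini-Hochberg adjustment over all rows in each of 6 contrasts, and a call needed an adjusted p under 0.05. A permutation test of 3 against 3 cannot go below p = 0.1 and was not used. Named genes were the 10 targets, TEAD4 as label check, the other TEAD genes and cofactors by level, and from the 13 further targets those called and the highest and lowest per contrast, except 1 that is not reported here. Likeness to CCN1 and CCN2 used the 3 genes with the highest Pearson r. Alternatives were a pseudocount of 0.1, no filter, a minimum of 5 FPKM, median-ratio and quantile scaling, library weights, a fit of only the groups compared, correction for GC content and length (spline with 5 degrees of freedom), replicate blocks, each library left out, a fold limit of 2, and, chosen after seeing the data, leaving out both TEAD4KO libraries that lay apart.

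Deviations from the group means of the GLUP-treated WT and TEAD4KO libraries that share replicate numbers 14, 15 and 16 in their titles correlated at 0.106, 0.152 and 0.336. Libraries with unlike numbers were not compared, so these values do not settle whether the libraries were paired. The main fit had no block, and the numbers were used only in the replicate block alternatives.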

Additional observations from a re-analysis of the deposited data

Results flagged for a closer look

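The response of *AMOTL2* to GLUP pointed in opposite directions in the 2 genotypes. All 3 GLUP libraries lay below the untreated mean in WT and all 3 lay above it among libraries labelled TEAD4KO, which drew attention to it. The difference between the 2 responses was 0.18 on the log2 scale (95% confidence interval -0.0027 to 0.37) and was not past the threshold by limma (adjusted p = 1), with no row of the 9 tested targets called for this interaction.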

How the results depend on the processing

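GLUP in WT had 1 called row, 2 with quantile scaling, 2 with GC and length correction, 2 without both TEAD4KO libraries that lay apart, 61 with library weights, 0 with a fold limit of 2, and 0 to 1 with a library left out. GLUP in TEAD4KO-labelled cells had 5, and 1 with library weights, 1 with only the groups compared, 1 without both libraries, 1 with the fold limit, and 1 to 6 with a library left out. The label in untreated cells had 608, and 394 with no filter, 399 with median-ratio scaling, 382 with only the groups compared, 196 with GC and length correction, 136 with that and the replicate block, 2231 without both libraries, 4 with the fold limit, and 119 to 1186 with a library left out. The label with GLUP had 656, and 2487 with library weights, 426 with GC and length correction, 1064 with the replicate block, 3121 without both libraries, 6 with the fold limit, and 196 to 1952 with a library left out. GLUP over both genotypes had 29, and 13 with no filter, 54 with GC and length correction, 1 with the fold limit, and 11 to 38 with a library left out.

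Of the targets, the 1 called under the label in untreated cells became 0 with no filter, the minimum of 5 FPKM (which leaves *FJX1* untested), median-ratio scaling, quantile scaling, library weights, only the groups compared, GC and length correction with or without the replicate block, and the fold limit, 3 without both libraries, and 0 to 3 with a library left out. The 3 called with GLUP became 5 with library weights, 1 with GC and length correction, 0 with the fold limit, and 0 to 4 with a library left out. For GLUP over both genotypes, 0 became 1 (*AJUBA*) with median-ratio scaling, library weights, GC and length correction or without both libraries, and 0 to 1 with a library left out. The longer M-CAT core was in 2 targets in place of 6.

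Reversals were of uncalled differences near 0. For GLUP in WT, *F3* (0.016) became -0.00094 with median-ratio scaling, -0.046 with quantile scaling and -0.0019 with library weights. For GLUP in TEAD4KO-labelled cells, *CCN2* (-0.017) became 0.027 with library weights, 0.011 with GC and length correction and 0.035 without both libraries. *F3* under the label in untreated cells became -0.019, and *AJUBA* with GLUP 0.031, under GC and length correction with or without the replicate block. Over both genotypes, *CCN2* became 0.0087 without both libraries, *FJX1* 0.0033 with GC and length correction and *AMOTL2* -0.00033 with median-ratio scaling. With a library left out, GLUP in WT ran from -0.054 to 0.043 for *CCN2*, -0.043 to 0.058 for *F3*, -0.047 to 0.025 for *AXL*, -0.14 to 0.003 for *FJX1* and -0.15 to 0.11 for *ANKRD1*. In TEAD4KO-labelled cells it ran from -0.088 to 0.064 for *CCN2*, -0.056 to 0.11 for *FJX1* and -0.16 to 0.10 for *PTPN14*. Under the label, untreated *F3* ran from -0.0029 to 0.067 and *AJUBA* with GLUP from -0.10 to 0.007. Over both genotypes the ranges were -0.053 to 0.023 for *CCN2*, -0.066 to 0.015 for *FJX1*, -0.013 to 0.02 for *AMOTL2* and -0.10 to 0.024 for *PTPN14*. Over all alternatives, values of single targets kept their direction and side of the threshold in 898 cases, reversed in 43, lost the call in 32, gained it in 13, and moved without a test in 4 (*NT5E* with a pseudocount of 0.1).

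The causes of these shifts were not tested, except that the fold limit, the filters and the smaller fits change what is counted. Across genotypes, deviations of untreated libraries numbered 1, 2 and 3 correlated at -0.0569, 0.203 and -0.0149, a range that overlaps that of the GLUP libraries. In untreated cells the limma fit with the replicate block gave *FJX1* an adjusted p of 0.0294 and *IGFBP3* 0.052. The block changed no call of a target in either condition. No paired analysis was possible for GLUP against untreated because those groups share no replicate numbers. Depth is unknown, so no counting limit can be given for any target.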
